A study of Rattus norvegicus with 12 samples.

Results

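AP-1 is a family of dimeric transcription factors, and the 8 transcripts described here encode 4 Fos proteins (Fos, Fosb, Fosl1 and Fosl2), 3 Jun proteins (Jun, Junb and Jund) and the related stress-induced factor Atf3. They were chosen by gene symbol, with earlier results of these data known, and all 8 were found among the 17312 symbols of each library. Each library was RNA sequencing of cultured ventricular cardiomyocytes from neonatal rats, of the Wistar strain by the labels. The 12 libraries formed 4 groups of 3. Unstretched control cells received a control siRNA and no stretch, and stretched control cells received the same siRNA and cell stretch. Unstretched and stretched Wnt5a siRNA cells received Wnt5a siRNA, without and with stretch. Wnt5a is a secreted ligand of the Wnt family. All 4 groups were therefore transfected cultures. Since nothing in the labels places the replicates in separate cultures, a p-value here covers only library-to-library spread, which may be technical.

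Fos proteins cannot bind DNA as dimers of their own and pair with a Jun protein, while Jun proteins also pair with each other. The dimers bind the AP-1 site, and with some partners the longer cyclic AMP response element, or CRE. Many members are immediate early genes, transcribed within minutes of a stimulus through kinases that act on factors already present, and in heart muscle they are known to respond to mechanical load and to hypertrophic hormones. Jund differs in being made constitutively in many tissues, and Atf3 is a stress-induced factor that often represses.

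The sequences upstream of 3 members, Fosl1, Junb and Jund, are shown first. Fosl1, Junb and Atf3 were the members called for a change with stretch that differed between the siRNAs, but Atf3 had no matched promoter. Jund is the most abundant member. They are the 250 bases before the gene start from RefSeq, build GRCr8, 5′ to 3′ on the gene's strand. RefSeq promoters were matched for 5 of the 8 members (Fosb, Fosl1, Fosl2, Junb and Jund). Capitals mark matches, on either strand, to the AP-1 site TGANTCA, the CRE TGACGTCA, its core TGACG (which overlaps the CRE), the CArG box bound by SRF, and the elements TATAAA and CCAAT. Fosl1 is at chr1:212183635-212183884 on the plus strand, Junb at chr19:40080876-40081125 on the plus strand and Jund at chr16:18769772-18770021 on the minus strand.
Fosl1: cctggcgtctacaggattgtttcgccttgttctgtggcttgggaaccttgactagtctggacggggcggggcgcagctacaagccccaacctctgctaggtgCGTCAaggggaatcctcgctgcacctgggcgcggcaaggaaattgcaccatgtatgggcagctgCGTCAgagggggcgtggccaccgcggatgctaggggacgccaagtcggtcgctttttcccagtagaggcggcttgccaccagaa
Junb: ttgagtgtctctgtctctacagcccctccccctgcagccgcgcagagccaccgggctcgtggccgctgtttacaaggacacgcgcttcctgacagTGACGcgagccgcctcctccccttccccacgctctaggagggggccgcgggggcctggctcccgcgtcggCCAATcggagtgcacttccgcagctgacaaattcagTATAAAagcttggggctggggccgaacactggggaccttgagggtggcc
Jund: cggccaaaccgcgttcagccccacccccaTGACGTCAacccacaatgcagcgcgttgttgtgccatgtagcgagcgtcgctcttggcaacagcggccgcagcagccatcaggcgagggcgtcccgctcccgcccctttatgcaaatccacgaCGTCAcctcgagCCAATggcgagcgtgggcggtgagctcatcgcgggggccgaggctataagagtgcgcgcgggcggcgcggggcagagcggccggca
The window of Jund held a full CRE that begins 221 bases before the start, a further core and a CCAAT element. The window of Fosl1 held the core at 148 and 84 bases before the start, and that of Junb held the core at 155, CCAAT at 85 and TATAAA at 49. Of 11674 promoters of genes in the data, 2.54% held the CRE, 24.9% the core, 35.1% CCAAT, 9.37% TATAAA, 5.27% the AP-1 site and 1.20% the CArG box. No AP-1 site or CArG box was found in the 5 windows, that of Fosl2 held none of these motifs, and that of Fosb held TATAAA in reverse at 180. A match is a description of letters and not a binding site.

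Values are the authors' FPKM, fragments scaled to transcript length and library size, so levels can be compared between genes. Changes are differences of log2(FPKM + 1) ± SE from limma, fitted on the 10518 genes with at least 1 FPKM in at least 3 libraries, and adjusted p-values are from limma with Benjamini-Hochberg adjustment over those genes. All 8 members passed this filter. Fosb reached 1 FPKM in 6 of 12 libraries, among them the 3 stretched control libraries where it was highest, so counts are also given without it. The FPKM of all genes summed to 575161 to 607276 in the 6 libraries without stretch, to 676014 to 709021 in the stretched control and to 619742 to 659933 in the stretched Wnt5a siRNA libraries. Stretched control replicate 3 stood apart from its group. The SD of its log2 differences from replicates 1 and 2 was 0.393 and 0.426, against 0.205 to 0.288 for other pairs of replicates. For the cardiomyocyte label 7 markers were summed (Tnnt2, Tnni3, Actn2, Myh6, Ryr2, Pln and Myl2), and their sum was 9764 FPKM or more in every library. Marker sums give no measure of how pure the cultures were. The 8 fibroblast markers summed to 3316 to 9277 FPKM, with Col1a2 listed at 0 throughout, a value that can also be a failed estimate. The 6 smooth muscle and pericyte markers summed to 2077 to 4646 FPKM. The 7 macrophage and leukocyte markers summed to 109.9 to 387 FPKM, with Adgre1 under 1, and the 6 endothelial markers to 8.58 to 42.7 FPKM, with Vwf under 1.

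Wnt5a, the siRNA target, was measured without stretch at 12.3, 10.4 and 11.6 FPKM with control siRNA and at 6.15, 4.599 and 6.81 with Wnt5a siRNA (log2 change −0.87 ± 0.14, adjusted p = 0.00142). With stretch it was at 6.52, 5.66 and 8.22 FPKM with control siRNA and at 6.22, 5.88 and 5.56 with Wnt5a siRNA, and the groups overlapped (−0.17 ± 0.14, adjusted p = 0.387). The transcript therefore separates the siRNA groups without stretch and gives no check of the labels under stretch. With control siRNA, Wnt5a was lower with stretch than without (−0.68 ± 0.14, adjusted p = 0.00139).

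The AP-1 pool was made up largely of Jun family transcripts. Averaged over the 12 libraries, Jund was at 69.2 FPKM, Jun at 51.1, Junb at 36.4, Atf3 at 15.3, Fosl2 at 12.8, Fos at 12.3, Fosl1 at 5.74 and Fosb at 1.44. The order Jund, Jun, Junb held in 12 of 12 libraries, and each of the 3 was above every other member in all of them. Atf3, Fosl2 and Fos changed places, since Atf3 was above Fosl2 in 5 of 12 libraries and Fosl2 above Fos in 7 of 12. Fosl1 was below these 3 and Fosb was lowest in 12 of 12. With control siRNA the Jun family gave 76.4% to 78.8% of the summed FPKM of the 8 members before and 71.1% to 75.5% after stretch. With Wnt5a siRNA it gave 80.2% to 81.4% and 76.8% to 79.4%. The share of Atf3 with control siRNA was 4.06% to 5.76%, and with stretch 7.05% to 12.2%. All 8 together summed to 174, 163 and 153 FPKM with control siRNA alone and to 314, 296 and 211 with added stretch. With Wnt5a siRNA they summed to 179, 193 and 172 FPKM, and with added stretch to 196, 214 and 186, so that stretched Wnt5a siRNA replicate 2 lay above stretched control replicate 3.

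**Figure D1:**
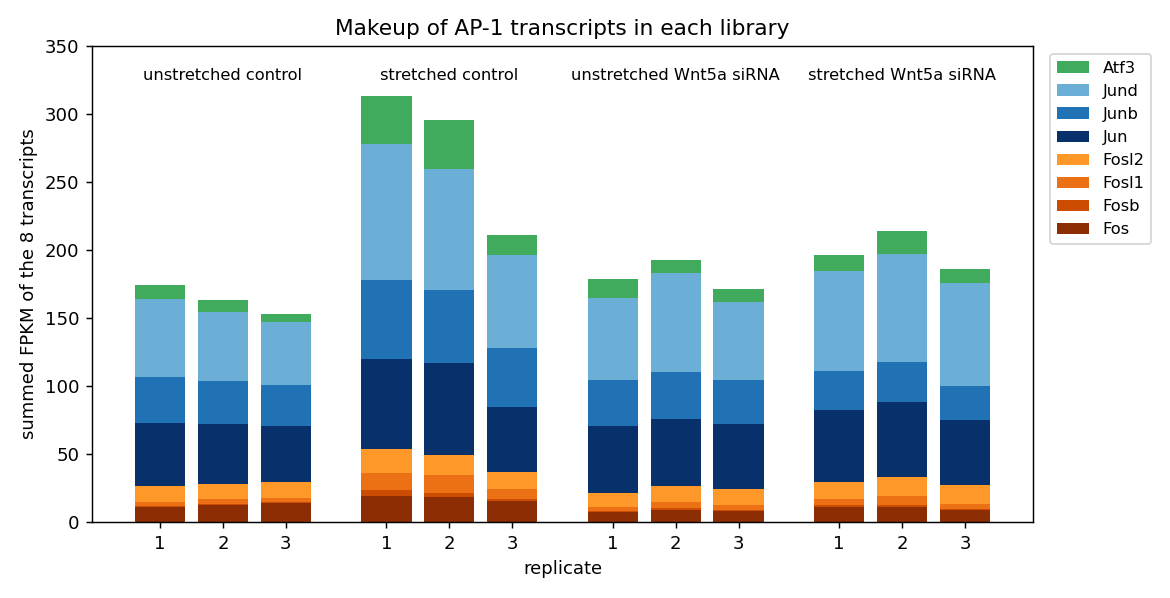
Stacked bars give the summed FPKM of the 8 AP-1 transcripts in each of the 12 libraries, with each transcript as a coloured segment from Fos at the bottom to Atf3 at the top. The stretched control bars reach 314, 296 and 211 FPKM, and the blue Jun family segments make up most of every bar.

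Stretch with control siRNA asks how the cells respond to load when Wnt5a is not targeted. All 8 transcripts rose, by 1.27-fold for Fosl2 up to 3.77-fold for Fosb in mean FPKM, and in each of them the 3 stretched libraries lay above the 3 unstretched libraries. Of all genes tested 54.3% were called in either direction, 27.5% were called higher and 29.0% did not overlap in that direction, so a rise by itself was common in this comparison. This split depended on the scaling: 2889 genes were higher and 2822 lower, and with every library scaled to the same sum (TPM scaling) 1451 and 4493. Without Fosb the count was 7 of 7. On the log2(FPKM + 1) scale the largest changes among the members were those of Atf3 and Fosl1, which were exceeded by 0.504% and 0.561% of the genes tested, and Fosl2, exceeded by 24.6%, changed least.

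Among the Fos proteins, Fosl1 (Fra-1), which lacks the strong activation domain of Fos, was at 2.97, 3.26 and 2.75 FPKM without stretch and at 12.6, 13.5 and 7.37 with it. It rose 3.73-fold (log2 change 1.57 ± 0.21, adjusted p = 5.52e-05). Replicate 3 was the lowest of the stretched libraries and still above every unstretched library. Fosb, a close relative of Fos, was at 0.644, 0.970 and 0.761 FPKM without and 4.16, 2.87 and 1.92 with stretch (1.12 ± 0.23, adjusted p = 0.00121). With a pseudocount of 0.1 its change was 1.74, since log2(FPKM + 1) understates the change of a transcript near 1 FPKM. Fos itself, the prototype immediate early gene, changed by less than Fosl1 and Fosb. The duration of stretch was not used here, so the values are not placed in time. It was at 11.4, 12.8 and 14.4 FPKM without and at 19.3, 18.7 and 15.4 with stretch, a rise of 1.39-fold (0.44 ± 0.12, adjusted p = 0.00833). Fosl2 (Fra-2) was at 11.97, 10.8 and 11.97 FPKM without and at 17.6, 14.3 and 12.1 with stretch (0.30 ± 0.12, adjusted p = 0.0445). Its call was the least firm, since it passed in 9 of 21 alternative analyses, with adjusted p from 0.00414 to 0.520.

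The Jun proteins began from higher levels, and their factors lay below those of Fosl1 and Fosb. Junb, a weaker activator than Jun on many promoters, went from 33.7, 31.6 and 30.3 FPKM to 58.4, 54.0 and 43.1 (1.63-fold, 0.67 ± 0.10, adjusted p = 0.000187). Jund went from 57.8, 51.1 and 45.7 FPKM to 99.8, 88.7 and 68.3 (1.66-fold, 0.71 ± 0.13, adjusted p = 0.000653), the largest gain of any member in FPKM at 34.1. Jun was at 45.7, 44.3 and 40.9 FPKM without and 66.1, 67.3 and 48.1 with stretch (1.39-fold, 0.45 ± 0.11, adjusted p = 0.00414). In all 3 the third stretched library was the lowest. Atf3 was at 10.03, 8.44 and 6.21 FPKM without and at 35.5, 36.1 and 14.9 with stretch (3.50-fold, 1.61 ± 0.30, adjusted p = 0.000617), and replicate 3 was again the lowest.

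In all 8 members the lowest stretched control value was that of replicate 3, the library that stands apart. Without it the log2 changes were 2.02 for Atf3, 1.82 for Fosl1, 1.32 for Fosb, 0.86 for Jund, 0.80 for Junb, 0.60 for Jun, 0.54 for Fos and 0.42 for Fosl2, and all 8 were called. In that replicate the 8 fibroblast markers summed to 8139 FPKM, against 4678 and 4741 in the other replicates of the group and 3316 to 3821 with control siRNA alone. The 7 macrophage and leukocyte markers summed to 387 FPKM, against 234 and 235, and 117 to 151 without stretch. The cardiomyocyte markers summed to 9764 FPKM, against 13760 and 16090. In bulk RNA, fewer cells of a type and less RNA per cell cannot be told apart, and the part of these markers in the AP-1 values was not tested. The sum of all FPKM also rose with stretch. TPM scaling took the median change over all genes from 0.01 to −0.19 on the log2 scale and left 5 members called, as Fos (0.23, adjusted p = 0.0943), Jun (0.23, 0.0709) and Fosl2 (0.09, 0.520) no longer passed. These 3 changes stayed above the shifted median.

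**Figure D2:**
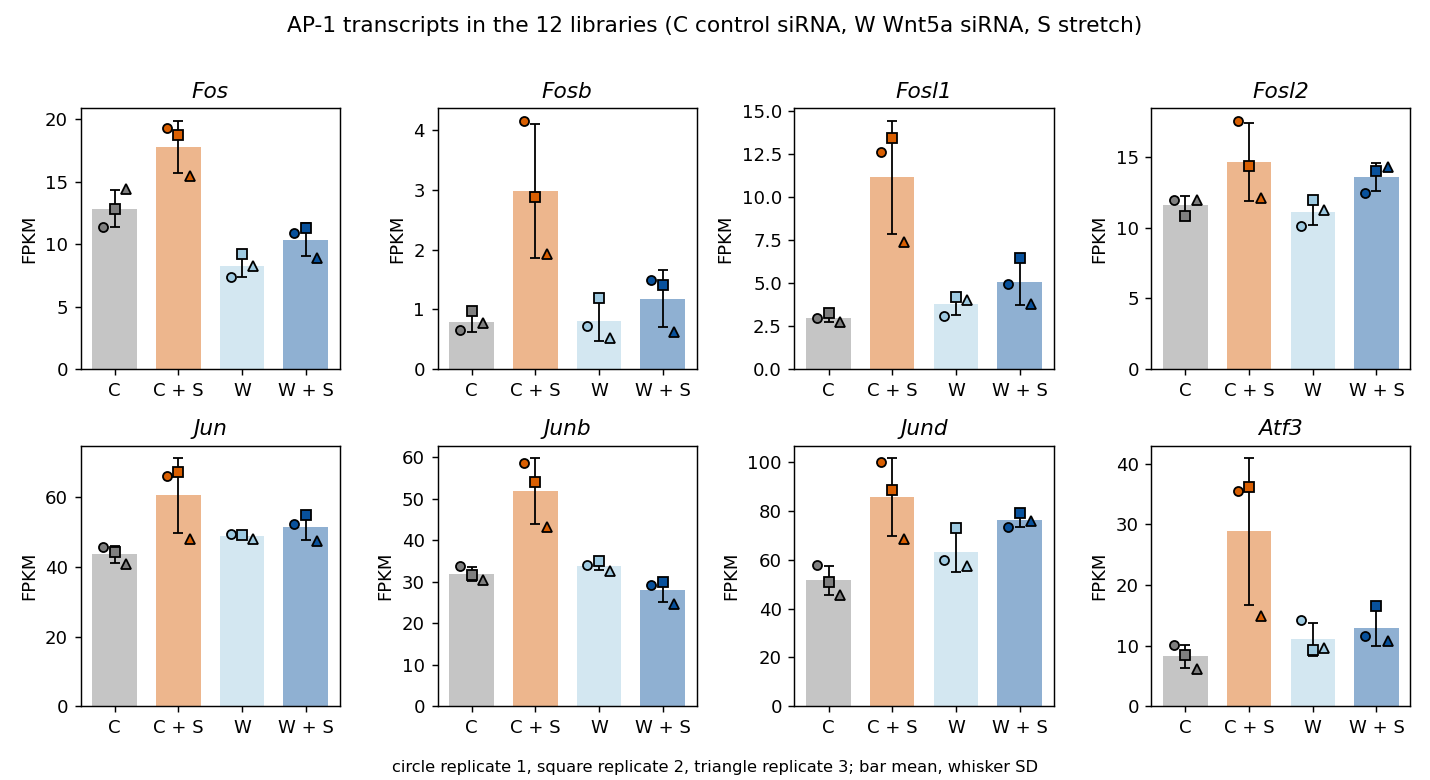
Each panel plots 1 AP-1 transcript in FPKM, with a point for each library (circle, square and triangle for replicates 1, 2 and 3), bars for group means and whiskers for SD, n = 3. Stretched control (C + S) is the highest group mean in all 8 panels and its triangle is the lowest of the 3 points, while stretched Wnt5a siRNA (W + S) lies near the unstretched groups for Fosb, Jun and Atf3.

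Stretch with Wnt5a siRNA asks for the same response when Wnt5a is targeted. No member passed limma's test, against 16.0% of all genes called, 8.44% higher and 7.59% lower (888 and 798 genes, or 502 and 1776 with TPM scaling). At an unadjusted p under 0.05 there were 3 (Fos, Fosl2 and Junb). Counts at an unadjusted p, here and below, have no share of all genes beside them and are not set against a background. Fosl1 was at 3.06, 4.21 and 4.04 FPKM without stretch and at 4.92, 6.48 and 3.78 with it, with overlap (log2 change 0.33 ± 0.21, interval −0.12 to 0.78, adjusted p = 0.307). Atf3 was at 14.2, 9.29 and 9.54 FPKM without and 11.6, 16.5 and 10.8 with stretch (0.22 ± 0.30, interval −0.42 to 0.86, adjusted p = 0.662). The upper ends of both intervals lie below the changes with control siRNA. Fosb was at 0.713, 1.18 and 0.519 FPKM without and 1.49, 1.41 and 0.626 with stretch (0.26 ± 0.23, adjusted p = 0.471).

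The remaining members showed small differences. Jun was at 49.5, 49.1 and 47.9 FPKM and with stretch at 52.3, 55.0 and 47.5, with overlap (0.08 ± 0.11, adjusted p = 0.686). Jund was at 59.8, 72.8 and 57.4 FPKM and with stretch at 73.6, 79.3 and 75.7 (0.27 ± 0.13, adjusted p = 0.187). Fosl2 was at 10.1, 11.97 and 11.3 FPKM and with stretch at 12.5, 14.0 and 14.3 (0.27 ± 0.12, adjusted p = 0.141), close to its change of 0.30 with control siRNA. In Jund and Fosl2 the libraries of the groups did not overlap, as in 20.1% of all genes in that direction. Fos was at 7.40, 9.19 and 8.27 FPKM and with stretch at 10.9, 11.3 and 8.86, with overlap (0.29 ± 0.12, adjusted p = 0.130). Junb lay the other way, at 34.0, 34.9 and 32.6 FPKM without and 29.1, 29.9 and 24.7 with stretch (−0.27 ± 0.10, adjusted p = 0.0977). The fall of Junb passed with the replicate number as a block (adjusted p = 0.0353), a pairing that the labels do not state. It passed as well in a fit of only these 6 libraries (0.0392) and without stretched control replicate 3 (0.0196). With TPM scaling the fall was −0.39 (adjusted p = 0.0114). In all, 4 of 21 alternatives passed, with adjusted p up to 0.284.

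The difference between these responses was tested as the interaction of stretch and siRNA. The comparisons share libraries, and their values are given side by side. In 3 members the change with stretch was smaller with Wnt5a siRNA, while 23.8% of all genes were called and 12.1% in this direction (1226 higher and 1277 lower, or 1612 and 815 with TPM scaling). These were Junb (−0.95 ± 0.15, adjusted p = 0.00218), Fosl1 (−1.24 ± 0.29, adjusted p = 0.0112) and Atf3 (−1.40 ± 0.42, adjusted p = 0.0305). Junb and Fosl1 passed in 20 of 20 alternative analyses and Atf3 in 12 of 20, with adjusted p from 0.00103 to 0.0799. Atf3 missed the threshold without the filter on low values and when any 1 of 7 libraries was left out, namely unstretched control replicate 2 or 3, stretched control replicate 1 or 2, unstretched Wnt5a siRNA replicate 1 and stretched Wnt5a siRNA replicate 1 or 3. In FPKM the difference between stretched and unstretched means with Wnt5a siRNA was 15.8% of that with control siRNA for Fosl1 and 9.44% for Atf3. For Junb it was 20.0 FPKM with control and −5.95 FPKM with Wnt5a siRNA.

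For the other 5 members the interaction did not pass; with the replicate block Fosb (adjusted p = 0.0346) and Jun (0.0439) did. The estimates were −0.86 ± 0.32 for Fosb (adjusted p = 0.0694), −0.37 ± 0.15 for Jun (0.0980) and −0.44 ± 0.19 for Jund (0.102). Without stretched control replicate 3 these 3 passed too, at 0.0165, 0.00179 and 0.0095, which makes 6 members called. Over all genes that fit called 1733 higher and 1905 lower, against 1226 and 1277 with all libraries. The library left out held the lowest stretched control value of every member, so its removal could only lower these estimates. Fos and Fosl2 were at −0.15 (interval −0.53 to 0.22, adjusted p = 0.545) and −0.03 (interval −0.39 to 0.33, adjusted p = 0.909), and neither passed in any alternative.

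**Figure D3:**
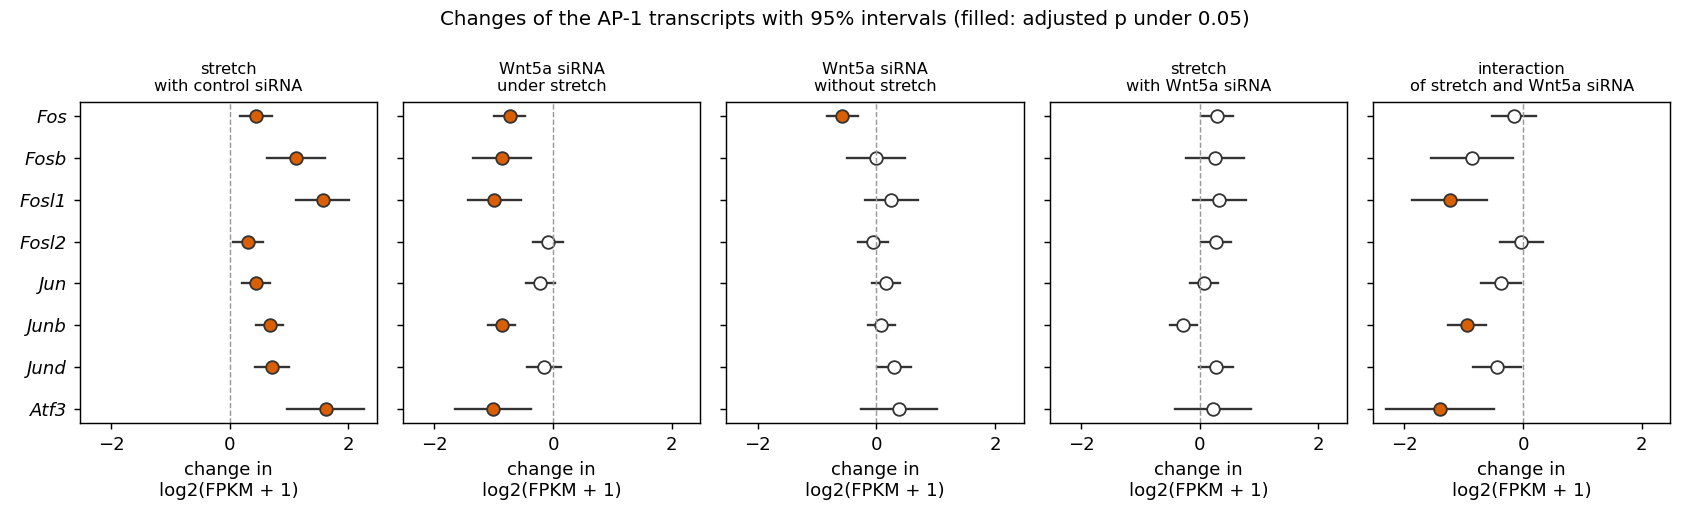
Points give the change of each AP-1 transcript in log2(FPKM + 1) with its 95% interval in the 5 comparisons, which share libraries, and filled points have an adjusted p under 0.05. All 8 points are filled for stretch with control siRNA, none for stretch with Wnt5a siRNA, and 3 (Fosl1, Junb and Atf3) for the interaction.

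Under stretch, 5 members were lower with Wnt5a siRNA than with control siRNA, 4 of 7 without Fosb, against 27.3% of all genes called and 14.2% called lower. Over all genes 1386 were higher and 1489 lower, and with TPM scaling 2187 and 811, while the same count of 5 members was lower. Fosl1 was at 45.4% of the stretched control mean (log2 change −0.99 ± 0.21, adjusted p = 0.00668) and Junb at 53.8% (−0.86 ± 0.10, adjusted p = 0.00132). Fos was at 58.2% (−0.73 ± 0.12, adjusted p = 0.00275), Fosb at 39.5% (−0.86 ± 0.23, adjusted p = 0.0170) and Atf3 at 44.9% (−1.02 ± 0.30, adjusted p = 0.0254). The libraries of the groups did not overlap for Fos, Fosb, Fosl1 and Junb, as in 19.0% of all genes in this direction. They did for Atf3, whose stretched control replicate 3, at 14.9 FPKM, lay below stretched Wnt5a siRNA replicate 2, at 16.5. Jun, Jund and Fosl2 overlapped and did not pass (−0.21 ± 0.11, −0.15 ± 0.13 and −0.09 ± 0.12, adjusted p = 0.163, 0.410 and 0.596). Leaving out stretched control replicate 3 raised the count to 7, with Jun (adjusted p = 0.00144) and Jund (0.0415) added. Over all genes that fit called 2288 higher and 2380 lower. Leaving out stretched control replicate 1 or stretched Wnt5a siRNA replicate 3 lowered the count of members to 3 (Fos, Fosl1 and Junb). Over all genes these fits called 515 and 597 higher and 587 and 671 lower. The count of members thus moved in the same direction as the count of all genes.

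The marker sums moved beside this comparison. The fibroblast markers summed to 8671 to 9277 FPKM in the stretched Wnt5a siRNA libraries, above every stretched control library. For the cardiomyocyte markers the sums were 9802 to 11580 FPKM, against 9764 to 16090 with control siRNA. The smooth muscle and pericyte markers (6 genes) summed to 2077 to 2434 FPKM against 2600 to 4646, and the macrophage markers to 271 to 309 against 234 to 387. The endothelial markers (6 genes) summed to 26.8 to 42.7 FPKM against 15.2 to 21.7. Their part in the AP-1 differences was not tested.

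Without stretch 2 members had an unadjusted p under 0.05 with Wnt5a siRNA (Fos and Jund), and Fos alone was called. It was at 11.4, 12.8 and 14.4 FPKM in the control and at 7.40, 9.19 and 8.27 in the Wnt5a siRNA libraries, 64.5% of the control mean (−0.57 ± 0.12, adjusted p = 0.00518). Of all genes 28.5% were called and 13.9% called lower. The Fos libraries of the groups did not overlap, as in 24.7% of all genes in that direction, and Fos passed in 21 of 21 alternatives. The lower level of Fos with Wnt5a siRNA was thus measured with and without stretch, by −0.73 and −0.57, and the interaction did not separate these values. The others were at −0.002 for Fosb, −0.06 for Fosl2, 0.08 for Junb, 0.16 for Jun, 0.25 for Fosl1, 0.29 for Jund and 0.38 for Atf3, with adjusted p from 0.117 for Jund to 0.996 for Fosb. Jund passed after quantile normalization and without stretched control replicate 3 (adjusted p = 0.0351). The 3 Jun libraries with Wnt5a siRNA lay above the 3 control libraries, as in 24.7% of all genes. Beside the lower Fos, the cardiomyocyte markers summed to 10780 to 11540 FPKM with Wnt5a siRNA and to 15140 to 17720 with control siRNA, and 4 of 7 were lower. The fibroblast markers summed to 5067 to 5349 FPKM against 3316 to 3821. The part of these markers in the Fos difference was not tested.

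The members were also compared by how alike they ran over the 12 libraries. Likeness was measured as the root mean square difference of log2(FPKM + 1) over the 12 libraries, with each gene centred on its own mean. It is a description, since the libraries of a group share treatment and handling. The measure is not scaled to how much a gene varies, so members that vary little lie close together. The root mean square of a member about its own mean was 0.19 for Fosl2, 0.20 for Jun and 0.31 for Jund. For Fosl1 it was 0.64 and for Atf3 0.70. Among the members the closest pairs were Fosl2 with Jun at 0.15, Jun with Jund at 0.16 and Fosl2 with Jund at 0.19. Jun with Junb (0.24), Fosb with Fosl1 (0.24) and Fosl1 with Atf3 (0.27) followed, and Atf3 and Fosl2 were farthest apart at 0.58.

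Outside the family, 8568 or 8569 genes were compared with each member. The nearest to Fosl1 were Dusp6, an ERK phosphatase (0.14), the kinase Plk2 (0.16) and Ier3 (0.17). The group means of Dusp6 were 16.2 FPKM before and 49.1 after stretch with control siRNA, and 19.2 and 24.6 with Wnt5a siRNA. The nearest to Atf3 were the receptor Epha2 (0.22), the transcription factor Myc (0.22) and the glutamate transporter Slc1a3 (0.23). Junb was nearest to the prolyl hydroxylase Egln3 (0.10), Pcgf5 (0.11) and the histone methyltransferase Dot1l (0.11), and these too were at their lowest group mean in the stretched Wnt5a siRNA libraries, Egln3 at 52.4 FPKM against 91.2 in the stretched control. The nearest to Fos were Ppp1r2 (0.14), the cardiac troponin Tnnc1 (0.14) and Fam49b (0.15), whose group means were lower with Wnt5a siRNA with and without stretch. Those of Tnnc1 were 4862 and 6906 FPKM with control siRNA and 3822 and 4062 with Wnt5a siRNA, without and with stretch. Fosb was nearest to Rrp8, Efhd2 and Coq10b (0.16 to 0.17), Fosl2 to Imp3, Dohh and Farsa (0.08 to 0.09), Jun to Ppp1r15b, Tax1bp3 and Tmem214 (0.06) and Jund to Eif5a, Slc25a32 and Bop1 (0.10 to 0.11).

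Other bZIP factors that pair or compete with AP-1 moved in part. Of 17 listed 13 were in the data and 10 were tested, and with control siRNA 4 rose with stretch, with a median change of 0.20 over the list and 0.01 over all genes, of which 27.5% rose. Maff, a small Maf protein without an activation domain, was at 9.06, 7.72 and 8.48 FPKM without and at 27.0, 29.1 and 14.7 with stretch (1.33 ± 0.24, adjusted p = 0.000482). Mafk, a further small Maf, was at 50.5, 41.2 and 38.0 FPKM without and 111, 110 and 48.9 with stretch, with overlap (0.96 ± 0.28, adjusted p = 0.0110). As in the AP-1 members, replicate 3 was the lowest of the stretched libraries in both. Bach1, a repressor that pairs with small Mafs, rose (0.44 ± 0.08, adjusted p = 0.000808), as did Nfe2l2 (Nrf2) (0.28 ± 0.08, adjusted p = 0.00768).

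Under stretch, Maff and Mafk were lower with Wnt5a siRNA (−0.96 ± 0.24 and −1.10 ± 0.28, adjusted p = 0.0127 and 0.0141). Jdp2, a repressor that pairs with Jun, was higher, at 27.1, 27.3 and 27.7 FPKM against 12.9, 18.2 and 22.2 (0.63 ± 0.14, adjusted p = 0.00805). The list thus had 2 members higher and 2 lower there, against 13.2% and 14.2% of all genes. Without stretched control replicate 3 it had 3 and 3, while over all genes 2288 were higher and 2380 lower. With Wnt5a siRNA 3 rose with stretch, against 8.44% of all genes. Among them were Bach1 (0.42 ± 0.08, adjusted p = 0.00594) and Maf (0.72 ± 0.16, adjusted p = 0.00997). Without stretch 0 of 10 passed limma's test, against 28.5% of all genes, and 0 at an unadjusted p under 0.05. The interaction called 0 of 10 and 4 at an unadjusted p under 0.05, with Mafk at −1.10 ± 0.39 (adjusted p = 0.0594). Of all genes the interaction called 23.8%. With the replicate block it called 2 of the list, and without stretched control replicate 3 it called 4, of which 2 were higher and 2 lower. Over all genes the fit without that library called 1733 higher and 1905 lower.

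The MAP kinases that lie upstream of AP-1 were followed as a further list. Of 15 tested genes of 19, 4 rose and 5 fell with stretch and control siRNA (median −0.10). These counts were close to the 27.5% and 26.8% of all genes that rose and fell. Map2k6, a kinase of the p38 pathway, was at 3.002, 1.84 and 2.78 FPKM without and 0.428, 0.154 and 0.589 with stretch (−1.35 ± 0.21, adjusted p = 0.000195). Map2k1 (MEK1) rose (0.29 ± 0.06, adjusted p = 0.00197) and Mapk9 (JNK2) fell (−0.30 ± 0.08, adjusted p = 0.00703). Under stretch 3 were higher and 3 lower with Wnt5a siRNA, against 13.2% and 14.2% of all genes, and with TPM scaling 3 and 0. Map2k6 was at 2.12, 1.49 and 2.197 FPKM there (1.08 ± 0.21, adjusted p = 0.00510) and Mapk8 (JNK1) was lower (−0.32 ± 0.08, adjusted p = 0.0134). Without stretch 0 were higher and 5 lower with Wnt5a siRNA (median −0.14), against 14.6% and 13.9% of all genes. Among these 5 was Map3k1 (−0.44 ± 0.10, adjusted p = 0.00591). With Wnt5a siRNA stretch lowered Mapk9 (−0.28 ± 0.08, adjusted p = 0.0351), or 2 genes with the replicate block, and the interaction called Map2k6 (0.91 ± 0.30, adjusted p = 0.0430). That call passed in 9 of 19 alternatives. Of all genes 7.59% fell with stretch and Wnt5a siRNA, and 11.7% were higher in the interaction. The interaction called 3 genes without stretched control replicate 3, and 0 without the filter on low values, with a filter at 5 FPKM or with quantile normalization. Over all genes the fit without stretched control replicate 3 called 1733 higher and 1905 lower.

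Of the factors that act on the Fos and Jun promoters 8 of 11 were tested. With control siRNA 3 rose and 3 fell with stretch (median 0.13), against 27.5% and 26.8% of all genes. Those that rose included Elk3, a ternary complex factor (0.50 ± 0.08, adjusted p = 0.000168), and Crem, a CRE-binding factor (0.44 ± 0.13, adjusted p = 0.0102). Mef2d fell (−0.55 ± 0.07, adjusted p = 7.04e-05). Under stretch 1 was higher and 2 were lower with Wnt5a siRNA, against 13.2% and 14.2% of all genes. Crem was higher there (0.43 ± 0.13, adjusted p = 0.0272, passing in 13 of 21 alternatives). Mef2d was lower (−0.25 ± 0.07, adjusted p = 0.0285, passing in 14 of 21), as was Srf. Srf was at 63.8, 64.7 and 37.3 FPKM in the stretched control and at 37.5, 42.7 and 34.0 in the stretched Wnt5a siRNA libraries, with overlap (−0.49 ± 0.17, adjusted p = 0.0456). Replicate 3 of the stretched control again lay apart, and without it the difference was −0.75 (adjusted p = 7.17e-05). The Srf difference passed in 6 of 21 alternatives, with adjusted p up to 0.181, and quantile normalization left 0 of the 8 factors called. With Wnt5a siRNA and no stretch Crem was higher (0.67 ± 0.13, adjusted p = 0.00299) and Mef2d lower (−0.28 ± 0.07, adjusted p = 0.0150). In all 2 were higher and 2 lower there, against 14.6% and 13.9% of all genes. With Wnt5a siRNA 1 rose and 1 fell with stretch (Elk3 and Mef2d), against 8.44% and 7.59% of all genes. The interaction called 0, against 23.8% of all genes, with 2 at an unadjusted p under 0.05.

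A list of 23 genes known from other systems as AP-1 targets was followed beside the factors, and 19 were tested. With control siRNA 14 rose and 2 fell with stretch, with a median change of 0.90 against 0.01 over all genes, of which 27.5% rose and 26.8% fell. Hbegf, an EGF family ligand, was at 22.8, 17.3 and 15.3 FPKM without and 117, 120 and 58.4 with stretch (2.30 ± 0.31, adjusted p = 6.73e-05). Ptgs2, the inducible cyclooxygenase, was at 3.66, 1.99 and 2.005 FPKM without and 14.5, 13.9 and 12.3 with stretch (2.07 ± 0.18, adjusted p = 4.13e-06). Ccnd1, cyclin D1, went from 36.5, 38.1 and 33.3 to 128, 129 and 146 FPKM (1.87 ± 0.12, adjusted p = 1.08e-06). The chemokine Ccl2 (1.11 ± 0.12) and the protease inhibitor Timp1 (1.09 ± 0.12) rose as well (adjusted p = 1.09e-05 and 1.20e-05). Stretched control replicate 3 was the lowest of its group for Hbegf and Ptgs2 but the highest for Ccnd1. Mmp3, Mmp10, Mmp13 and Il6 were under 1 FPKM in every library and were not tested. Fibroblast marker sums were higher with stretch under each siRNA, and their part in these changes was not tested.

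With Wnt5a siRNA the targets split. Hbegf was at 39.4, 44.5 and 25.6 FPKM without and at 30.7, 46.7 and 21.7 with stretch, with overlap (−0.17 ± 0.31, adjusted p = 0.757). With stretch 9 rose and 1 fell (median 0.44, over all genes −0.01), against 8.44% and 7.59% of all genes. With either siRNA 7 rose, namely Mmp12, Timp1, Ccl2, Spp1, Cd44, Ccnd1 and Hmox1. The rise of Hmox1 with control siRNA had overlapping libraries (adjusted p = 0.0467) and passed in 6 of 21 alternatives. That of Cd44 with Wnt5a siRNA passed in 13 of 21. The interaction called 8 lower and 2 higher, against 12.1% and 11.7% of all genes. Timp1 passed in 10 of 20 alternatives and Gja1, 1 of those higher, in 8 of 20. Those lower were Hbegf (−2.47 ± 0.44, adjusted p = 0.00342), Ptgs2 (−1.63 ± 0.26, adjusted p = 0.00223), Ccnd1 (−0.98 ± 0.17, adjusted p = 0.00316), Sphk1 (−0.69 ± 0.10, adjusted p = 0.00158), Plaur, Edn1, Cd44 and Timp1. Sphk1, sphingosine kinase, was at 11.9, 12.01 and 11.5 FPKM and with stretch at 18.5, 19.0 and 17.8 with control siRNA, and at 16.0, 17.1 and 15.0 and then 15.4, 14.8 and 14.9 with Wnt5a siRNA. Spp1, osteopontin, was at 307, 295 and 304 FPKM in the stretched Wnt5a siRNA libraries against 114, 108 and 126 without stretch (1.38 ± 0.14, adjusted p = 0.000193), and its interaction did not pass (0.26 ± 0.20, adjusted p = 0.367). Targets outside the naming rule, Plaur and Mt2A among them, were named after their values were seen.

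Under stretch 10 of the 19 targets were lower and 0 higher with Wnt5a siRNA, against 14.2% and 13.2% of all genes. Without stretched control replicate 3 it was 11 lower and 2 higher, while over all genes 2380 were lower and 2288 higher. Ptgs2 was at 33.9% of the stretched control mean (−1.39 ± 0.18, adjusted p = 0.00160), Hbegf at 33.6% (−1.54 ± 0.31, adjusted p = 0.00593) and Gja1, connexin 43, at 51.5% (−0.93 ± 0.12, adjusted p = 0.00160). Without stretch 5 were higher and 5 lower, against 14.6% and 13.9% of all genes. Those higher included Sphk1 (0.41 ± 0.07, adjusted p = 0.00174) and Ccnd1 (0.50 ± 0.12, adjusted p = 0.0105). Gja1 was at 36.7% of the control there (−1.45 ± 0.12, adjusted p = 4.30e-05).

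**Figure D4:**
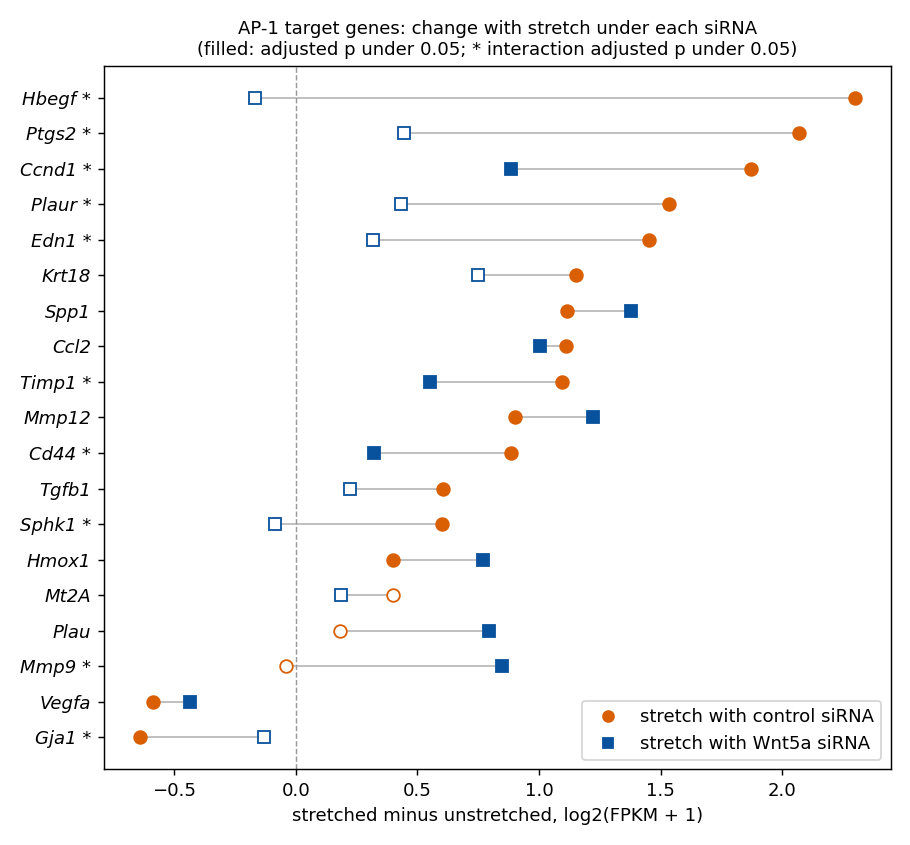
For each of the 19 tested AP-1 target genes the change with stretch in log2(FPKM + 1) is plotted with control siRNA (circles) and with Wnt5a siRNA (squares), and filled symbols have an adjusted p under 0.05. Squares lie left of circles in 12 of 19 genes, and stars mark the 10 genes called in the interaction, 8 of them lower.

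The AP-1 site TGANTCA was found within 250 bases before the start in 7 of 19 target genes with a RefSeq promoter, against 5.27% of 11674 promoters. The sites of the 4 tested genes among them are shown with 10 bases on each side (RefSeq, GRCr8, gene strand), the site in capitals, because their transcripts did not follow 1 pattern. Plaur is at chr1:89181270-89181296 (plus strand), Mmp12 at chr8:12866555-12866581 (plus strand), Gja1 at chr20:36302496-36302522 (plus strand) and Mt2A at chr19:10838929-10838955 (minus strand).
Plaur: ggatcccagcTGACTCActctttagca
Mmp12: acatcaacagTGAGTCAtattgaggat
Gja1: tccttccagtTGAGTCAgtggcttgaa
Mt2A: aaagggggtgTGACTCAgcgcgggggc
Plaur, the urokinase receptor, rose with stretch and control siRNA from 9.04, 7.97 and 6.58 to 25.6, 29.5 and 19.3 FPKM (1.53 ± 0.19, adjusted p = 3.22e-05), and with Wnt5a siRNA its change of 0.43 ± 0.19 did not pass (adjusted p = 0.140, interaction −1.10 ± 0.26, adjusted p = 0.0124). Mmp12, a macrophage elastase, rose with control siRNA (0.90 ± 0.12, adjusted p = 7.82e-05) and with Wnt5a siRNA (1.22 ± 0.12, adjusted p = 0.000176), beside macrophage marker sums that were higher with stretch under each siRNA. Gja1 fell with stretch and control siRNA (−0.64 ± 0.12, adjusted p = 0.000788). Mt2A, a metallothionein, ranged from 1.54 to 13.9 FPKM and passed in no comparison. The pattern TGANTCA thus stood before genes that rose, fell and did not pass.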

How the data were processed

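Total RNA was made into TruSeq Stranded mRNA libraries, per the labels' protocols. TopHat2 2.1.1, Bowtie2, Cuffdiff 2.2.1 and build rn6 are named, per the submitters' processing notes. Each file lists FPKM per gene symbol, as deposited. The annotation, strand setting and treatment of multiply mapped reads were not given in the sources used here, so overlapping and antisense genes are uncertain. Read depth is not known from FPKM. The value of 1 fragment, from steps of 1523 genes under 0.5 FPKM, spanned a factor of 1.21 between libraries. No 2 libraries were identical.

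Values were transformed to log2(FPKM + 1) and fitted as 4 group means over 12 libraries with limma 3.58.1 in R 4.3.3 (eBayes with a trend), with 2-sided tests and 0.05 as the threshold for adjusted p. The fit was tested on simulated data. An exact permutation test of 3 against 3 cannot go below 0.1 and was not used. Members and lists were chosen with earlier results of these data known, and lists are described by counts and medians, with no set test. Within lists, genes were named by smallest adjusted p (up to 4 for stretch with control siRNA, 3 elsewhere; where none was called, the 2 of highest level); the 3 most alike genes were named for each member. Deviations of same-numbered libraries had correlations of 0.143 to 0.242 for stretch with Wnt5a siRNA and of −0.019 to 0.249 elsewhere. The labels do not say that these libraries are paired. Alternatives were other pseudocounts, filters, scalings and fits, the replicate block and leaving out each library. List counts without stretched control replicate 3 were added after seeing the data. The list of AP-1 targets covers 23 genes; some other targets are not reported here.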

Additional observations from a re-analysis of the deposited data

Results flagged for a closer look

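The response to stretch of the genes below was not the same under the 2 siRNAs by limma's interaction test, with Benjamini-Hochberg adjustment. Of the AP-1 members these were Fosl1 (−1.24, adjusted p = 0.0112), Junb (−0.95, adjusted p = 0.00218) and Atf3 (−1.40, adjusted p = 0.0305). Wnt5a itself differed the other way (0.70, adjusted p = 0.0244). Its change with stretch was −0.68 with control siRNA and 0.02 with Wnt5a siRNA. The sign is that of the difference between the 2 stretch responses and not of a level. Of the AP-1 targets, the interaction was negative for Hbegf (−2.47, adjusted p = 0.00342), Ptgs2 (−1.63, 0.00223), Edn1 (−1.13, 0.0131), Plaur (−1.10, 0.0124) and Ccnd1 (−0.98, 0.00316). The same direction was found for Sphk1 (−0.69, adjusted p = 0.00158), Cd44 (−0.56, 0.0124) and Timp1 (−0.54, 0.0315). For Mmp9 (0.89, adjusted p = 0.0250), Gja1 (0.51, 0.0484) and the kinase Map2k6 (0.91, 0.0430) the interaction was positive. Mmp9 lay at 0.664 to 3.0 FPKM and passed in 14 of 19 alternatives. The change of Gja1 with stretch was −0.64 with control siRNA and −0.13 with Wnt5a siRNA.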

How the results depend on the processing

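For the count of members called, leaving out 1 library at a time gave 7 to 8 for stretch with control siRNA, 3 to 7 for Wnt5a siRNA under stretch, 1 to 2 for Wnt5a siRNA without stretch, 0 to 1 for stretch with Wnt5a siRNA and 2 to 6 for the interaction. TPM scaling gave 5 for stretch with control siRNA and 1 for stretch with Wnt5a siRNA. Fitting only the libraries compared gave 3 for Wnt5a siRNA under stretch and 1 for stretch with Wnt5a siRNA, and quantile normalization gave 2 for Wnt5a siRNA without stretch. With the replicate block 1 member was called for stretch with Wnt5a siRNA and 5 for the interaction (Fosb and Jun added), and Fosl2 was lost for stretch with control siRNA (adjusted p = 0.0621). Signs turned only where no test passed. For Fosl2 this was at 0.016 (TPM scaling) and −0.211 to 0.041 (without single libraries) for Wnt5a siRNA under stretch, −0.108 to 0.005 without stretch, and 0.068 (TPM scaling) and −0.154 to 0.098 for the interaction. For Fosb it was at −0.148 to 0.114 without single libraries for Wnt5a siRNA without stretch, and for Jun at −0.044 with TPM scaling for stretch with Wnt5a siRNA. Of the values of single members under alternatives 772 kept their direction and side of the threshold, 30 lost and 13 gained the call, and 12 turned sign. The cause of these shifts was not tested. The count of all genes called for Wnt5a siRNA under stretch, 2875, was 1102 to 4668 without single libraries and 1208 in a fit of the libraries compared; single libraries moved the other 3 comparisons with Wnt5a siRNA by over 1.5 times too. Unknown read depth and 3 libraries a group limit the precision.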
